A study of Mus musculus with 4 samples.

Results

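The 10 genes described here are widely used as markers of mesothelium and were followed through 4 RNA sequencing libraries of cultured mouse liver progenitor-like cells. They are Msln, Wt1, Upk3b, Upk1b, Lrrn4, Gpm6a, Muc16, Bnc1, Slpi and Efemp1, taken by symbol as 10 of the 21878 rows of each library's table. All 10 were found in all 4 tables. The rule uses the symbol only and no measured value, but the members were chosen with earlier results of these data known.

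The series compared 2 libraries of progenitor-like cells of hepatocyte origin (HepLPC) with 2 of non-parenchymal origin (NPC_LPC), both after culture in media for transition and expansion. Mice of both groups were C57BL/6, labelled as 6 to 8 weeks old. The protocol names tdTomato mice given AAV8-TBG-Cre, a virus whose promoter directs the recombinase to hepatocytes, for the hepatocyte preparation. For the non-parenchymal preparation it names AlbCreERT/R26GFP mice, in which an albumin-driven inducible recombinase switches on GFP. Where this listing was followed, the line of mice and the virus cannot be told apart from the origin of the cells. The cell type label of the HepLPC libraries mentions both cell sources, so the titles decided the grouping. The labels do not tie a replicate to a mouse or a culture of its own, and p-values therefore measure only the spread between these libraries, which may be technical.

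Mesothelium is the simple epithelium that lines the body cavities and covers the capsule of the liver. It keeps keratins and apical membrane glycoproteins of an epithelium beside Vim and Wt1, which are shared with mesenchyme, and in the embryo its cells can enter the liver and give rise to stellate cells and fibroblasts. None of the 10 genes is exclusive to it. Msln and Muc16 also appear on some cancers, Upk1b and Upk3b belong to the uroplakin family of the bladder lining, and Slpi and Efemp1 are made by many epithelia or connective tissues.

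Total counts ran from 17575998 to 20625957 per library, and 14070 to 14333 genes had at least 1 count. A floor of 3 counts, used for a gene near or at 0, was 0.148 to 0.169 CPM, the count rescaled to a common library size with TMM factors. Intervals and floors cover counting error only. The reads carry no molecular identifiers, so copies of a molecule may be counted as separate reads and the intervals may be too narrow. Alb, the hepatocyte secretory marker, was at 2.28 CPM or less in all 4 libraries, and the progenitor marker Sox9 was at 81.5 to 256 CPM. Other markers of these cell types went the other way. The hepatocyte gene Apob was at 1470 to 4723 CPM, and the bile duct marker Epcam was at 1.75 CPM or less. Levels of one gene are given in CPM, and levels of different genes are compared in the deposited FPKM, which is scaled by transcript length.

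The 10 genes ranged from 13929 counts in a library (Msln, HepLPC replicate 2) down to 0. By mean FPKM over the 4 libraries Msln led at 108, followed by Efemp1 at 81.6, Upk1b at 7.47 and Slpi at 3.31. Bnc1 at 0.771, Wt1 at 0.389 and Upk3b at 0.347 came next, and Gpm6a, Lrrn4 and Muc16 were at 0.0457, 0.0116 and 0.0101. Msln and Efemp1 together made up 93.9% to 98.6% of the CPM summed over the 10 genes. The set as a whole is therefore described gene by gene. Of the genes that mark mesothelium most closely, Lrrn4 was at or under the floor in all 4 libraries, Gpm6a in 3 and Upk3b in 1. Msln was above the floor in all 4, and Upk1b, Bnc1 and Wt1 in 4, 3 and 3. The name mesothelial refers here to the gene list, and whether the cultures held mesothelial cells was not tested.

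**Figure D1:**
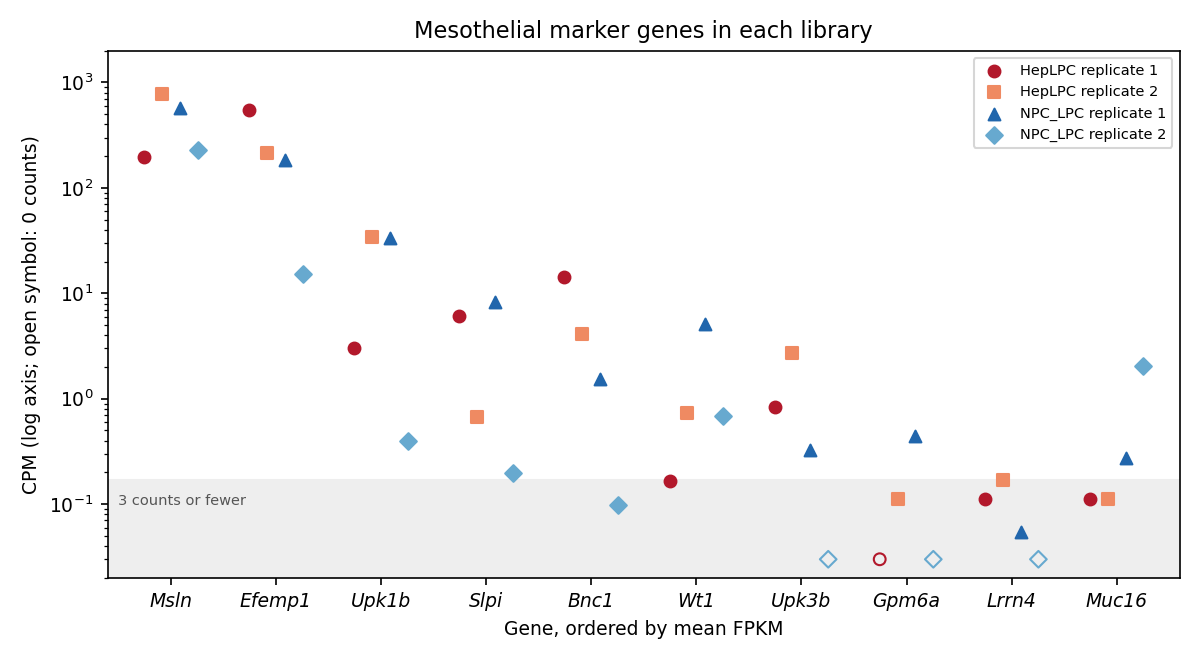
CPM of each gene (log axis) in the 4 libraries, with 1 symbol per library, genes ordered by mean FPKM, and open symbols for a count of 0. The grey band marks 3 counts or fewer; Msln lies at 198 to 785 CPM in every library, while Lrrn4 stays in the band in all 4.

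Msln encodes mesothelin, a surface glycoprotein anchored through a lipid, and lies on chromosome 17 from 25748613 to 25754378 (GRCm38, minus strand). HepLPC replicates 1 and 2 held 198 and 785 CPM of it, and NPC_LPC replicates 1 and 2 held 573 and 231 CPM. The HepLPC libraries held both the lowest and the highest value, and the groups overlapped. In FPKM the 4 values were 46.9, 197, 129 and 58.8 in the same order, which ranked Msln at 1275, 290, 360 and 926 among the 13856 to 14091 genes listed above 0. The group means were 491 ± 415 CPM (SD, n = 2) and 402 ± 242 CPM (SD, n = 2), a log2 fold change of HepLPC over NPC_LPC of 0.29 (SE 0.72, edgeR adjusted p = 0.846). The sign turned without HepLPC replicate 2, at -1.02, and without NPC_LPC replicate 2, at -0.22. In bulk RNA a change in the number of cells that carry a transcript and a change in transcript per cell cannot be told apart, and this holds for every gene here.

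Muc16, the CA125 mucin and a binding partner of mesothelin, was close to the floor in HepLPC and in NPC_LPC replicate 1, while Msln was abundant in every library. It lies on chromosome 9 (18495455 to 18674530) and had 2 and 2 counts in HepLPC and 5 and 41 in NPC_LPC, or 0.111, 0.113, 0.274 and 2.03 CPM. Only NPC_LPC replicate 2 had more than 5 reads, with a 95% Poisson interval of 1.46 to 2.75 CPM. The groups did not overlap, but the filter on low counts left Muc16 untested. When no filter was applied, edgeR gave it an adjusted p of 0.249.

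The uroplakins are tetraspanin-associated membrane proteins first described in bladder, and the set holds 2 of them. Upk1b, a tetraspanin itself (chromosome 16, 38773184 to 38800328), gave 3.05 and 33.9 CPM for HepLPC replicates 1 and 2, against 33.2 and 0.396 CPM for NPC_LPC replicates 1 and 2. HepLPC replicate 2 and NPC_LPC replicate 1 were thus nearly equal, at 601 and 606 counts, while the other libraries had 55 and 8. The NPC_LPC libraries differed 83.9-fold, with 95% Poisson intervals of 30.6 to 36.0 and 0.171 to 0.78 CPM. Their mean was 16.8 ± 23.2 CPM (SD, n = 2) against 18.5 ± 21.8 in HepLPC (SD, n = 2; log2 fold change 0.14, SE 1.73, edgeR adjusted p = 0.974). Without HepLPC replicate 2 the fold change was -2.46 and without NPC_LPC replicate 2 it was -0.85.

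Upk3b, which can pair with Upk1b at the cell surface and is among the most restricted mesothelial transcripts, lies on chromosome 5 (136038496 to 136046487). Its counts were 15 and 48 in HepLPC and 6 and 0 in NPC_LPC, which is 0.833, 2.70, 0.329 and 0 CPM. Both HepLPC libraries were above both NPC_LPC libraries. The fitted log2 fold change was 3.41 (SE 1.43), it depends on the prior count because 1 library had no read, and it did not pass (edgeR adjusted p = 0.24). The order of the libraries was not that of Upk1b: NPC_LPC replicate 1 had nearly as much Upk1b as the highest library and only 6 reads of Upk3b.

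Lrrn4, a leucine-rich repeat membrane protein (chromosome 2, 132868305 to 132880891), was not detectable above the floor in any library. It had 2 and 3 counts in HepLPC and 1 and 0 in NPC_LPC. Gpm6a, a membrane glycoprotein of neurons and mesothelium (chromosome 8, 54954843 to 55060871), had 0 and 2 counts in HepLPC and 8 and 0 in NPC_LPC. Its 8 reads in NPC_LPC replicate 1 correspond to 0.439 CPM, with a 95% Poisson interval of 0.189 to 0.865. Neither gene passed the filter on low counts, and no fold change is given for them.

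Wt1, a zinc finger transcription factor needed for coelomic epithelium and its derivatives, lies on chromosome 2 (105126529 to 105173616). It had 3 and 13 counts in HepLPC replicates 1 and 2 and 93 and 14 in NPC_LPC replicates 1 and 2. As CPM these were 0.167, 0.732, 5.10 and 0.693, so that NPC_LPC replicate 1 alone stood above 1 CPM and the groups overlapped. The means were 0.449 ± 0.4 CPM in HepLPC and 2.90 ± 3.12 CPM in NPC_LPC (SD, n = 2 each; a log2 fold change of -2.67, SE 1.23, edgeR adjusted p = 0.273). Leaving out NPC_LPC replicate 1 brought the fold change to -0.60. Msln exceeded Wt1 in FPKM by 114-fold in that library and by 338-fold to 1051-fold in the other 3.

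Bnc1, basonuclin, a zinc finger factor of basal keratinocytes, germ cells and mesothelium (chromosome 7, 81966672 to 81992292), had its reads mainly in HepLPC. Its level was 14.3 and 4.11 CPM for HepLPC replicates 1 and 2, against 1.54 and 0.099 CPM for NPC_LPC replicates 1 and 2, from 258, 73, 28 and 2 counts. The groups did not overlap, and the libraries of each group were 3.48-fold and 15.5-fold apart. The log2 fold change was 3.50 (SE 1.25) with an unadjusted p of 0.0326, the only 1 of the 7 tested members under 0.05 before adjustment, and an edgeR adjusted p of 0.191. DESeq2 called Bnc1 higher in HepLPC (log2 fold change 3.50, SE 1.10, adjusted p = 0.0176), as it called 5.35% of the genes it gave an adjusted p. Over all alternatives run on Bnc1 the fold change stayed above 0. Since the groups did not overlap, leaving out a library could not turn its sign. An annotated pseudogene on the opposite strand, 4833418N17Rik, overlaps 98 exonic bases of Bnc1, and whether the counting used the strand is not given in the sources used here.

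Efemp1, which encodes fibulin-3, a secreted matrix glycoprotein, lies on chromosome 11 (28853204 to 28926743). The HepLPC libraries held 552 (replicate 1) and 212 CPM (replicate 2), and the NPC_LPC libraries 184 (replicate 1) and 15.1 CPM (replicate 2). The lower HepLPC and the higher NPC_LPC library were close together, and NPC_LPC replicate 2 stood far below the rest. Means were 382 ± 241 and 99.5 ± 119 CPM (SD, n = 2 each), 3.84-fold apart (log2 fold change 1.94, SE 1.10, edgeR adjusted p = 0.354). Without NPC_LPC replicate 1 the log2 fold change was 4.67, and without NPC_LPC replicate 2 it was 1.05. In each of these fits the single NPC_LPC library was assumed to vary like the HepLPC libraries. In FPKM Efemp1 was 4.03-fold above Msln in HepLPC replicate 1, whereas Msln was 2.79-fold, 2.09-fold and 10.7-fold above Efemp1 in HepLPC replicate 2 and NPC_LPC replicates 1 and 2.

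Bnc1 and Efemp1 were the only pair among the 7 tested members with the same order of all 4 libraries, from HepLPC replicate 1 down to NPC_LPC replicate 2. Among 7 genes such a match can be a coincidence, and shared regulation was not tested. The promoters of this pair are shown because of the match, as the 250 bases before the RefSeq transcription start on GRCm38.p6, written 5′ to 3′ on the gene's strand. The Bnc1 window is chr7:81992300-81992549 (minus strand) and that of Efemp1 is chr11:28852955-28853204 (plus strand). Capitals mark matches on either strand to the GC box GGGCGG and to TGANTCA, a relaxed form of the AP-1 motif with N as any base. These matches do not overlap each other here.
Bnc1: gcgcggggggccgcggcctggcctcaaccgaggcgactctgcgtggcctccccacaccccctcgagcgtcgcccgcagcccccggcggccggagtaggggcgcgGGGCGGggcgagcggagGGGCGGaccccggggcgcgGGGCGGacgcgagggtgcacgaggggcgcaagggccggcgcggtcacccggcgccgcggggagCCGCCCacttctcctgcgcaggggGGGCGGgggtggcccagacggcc
Efemp1: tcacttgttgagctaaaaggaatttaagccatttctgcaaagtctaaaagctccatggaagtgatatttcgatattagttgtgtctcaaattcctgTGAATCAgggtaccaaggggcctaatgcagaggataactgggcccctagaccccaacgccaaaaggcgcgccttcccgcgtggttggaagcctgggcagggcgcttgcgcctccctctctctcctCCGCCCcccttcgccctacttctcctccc
The Bnc1 window held 5 GC boxes at a GC content of 83.6%, and the Efemp1 window 1 GC box and 1 AP-1 motif at 53.6%, beside a median GC content of 52.4% over 32851 windows of the same length. A GC box was present in 32.7% and a match to TGANTCA in 6.75% of those windows. The TEAD motif core CATTCC, present in 12.6%, and the TATA box TATAAA, present in 12.4%, had no match in either window. The table held 7 of the 10 members and no entry for Msln, Wt1 and Upk1b. These matches describe letters and say nothing of binding.

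Slpi, a secreted inhibitor of leukocyte elastase made by mucosal epithelia (chromosome 2, 164354070 to 164389095), reached 6.11 CPM in HepLPC replicate 1 and 0.676 in replicate 2, and 8.23 CPM in NPC_LPC replicate 1 and 0.198 in replicate 2. In each group replicate 1 was high and replicate 2 low, by 9.04-fold in HepLPC and 41.6-fold in NPC_LPC. The group means were 3.39 ± 3.84 and 4.21 ± 5.68 CPM (SD, n = 2 each; a log2 fold change of -0.31, SE 1.60, edgeR adjusted p = 0.933). The fold change was 0.54 without HepLPC replicate 2 and 4.07 without NPC_LPC replicate 1, so the sign rested on those libraries.

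**Figure D2:**
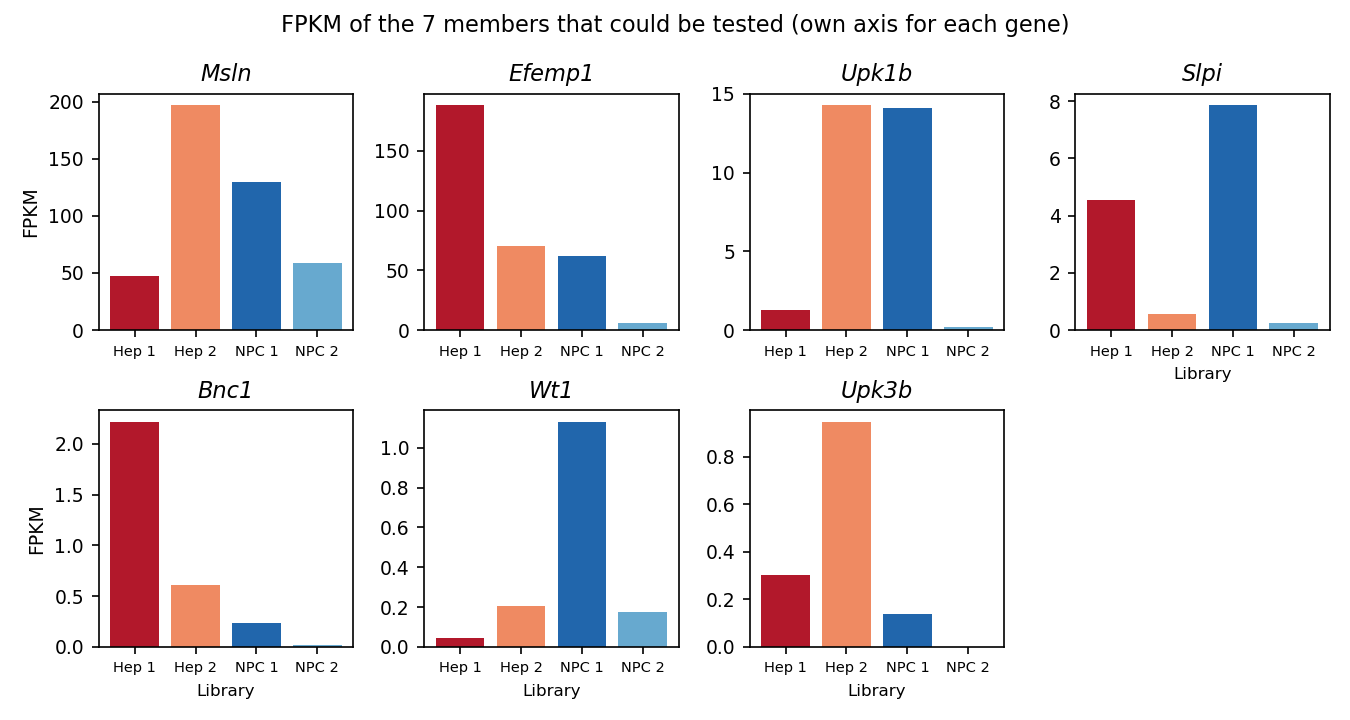
Deposited FPKM of the 7 members that passed the filter on low counts, 1 bar per library, with a separate axis starting at 0 for each gene. The highest bar of Msln and of Upk1b is HepLPC replicate 2, that of Efemp1 and Bnc1 is HepLPC replicate 1, and that of Slpi and Wt1 is NPC_LPC replicate 1.

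Taken by library, NPC_LPC replicate 2 was lowest or tied for lowest in 7 of the 10 genes and HepLPC replicate 1 in 4, with Gpm6a at 0 in both. HepLPC replicate 2 and NPC_LPC replicate 1 were lowest in 0 of the 10, and they held the highest value of 4 and 3 genes. At 1 CPM or above there were 5, 5, 6 and 3 of the 10 genes in HepLPC replicates 1 and 2 and NPC_LPC replicates 1 and 2. The CPM summed over the genes other than Msln and Efemp1 was 24.7 and 42.5 in HepLPC and 49.2 and 3.42 in NPC_LPC. The 2 NPC_LPC libraries were thus the extremes of that sum, and the HepLPC libraries lay between them. Upk1b alone gave 33.9 of the 42.5 CPM in HepLPC replicate 2 and 33.2 of the 49.2 CPM in NPC_LPC replicate 1. It gave 3.05 of the 24.7 CPM in HepLPC replicate 1 and 0.396 of the 3.42 CPM in NPC_LPC replicate 2.

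The members differed more between the libraries of 1 origin than most genes did. Over the 12332 tested genes the median absolute difference in log2(CPM + 0.5) between replicates was 0.39 in HepLPC and 0.33 in NPC_LPC, and over the 7 tested members it was 1.68 and 2.23. Upk1b differed by 3.27 and 5.23, more than 99.7% and 99.9% of tested genes. Slpi differed by 2.49 and 3.64, also above 99% of them in each group (99.2% and 99.4%). The lowest shares among the members were 84.5% for Wt1 in HepLPC and 79.6% for Upk3b in NPC_LPC. Msln differed by 1.98 and 1.31 and Efemp1 by 1.38 and 3.56. Low counts widen such differences, and for these 2 abundant genes the comparison was repeated over the 2432 tested genes with a mean of at least 100 CPM. Msln then exceeded 99.7% and 96.7% of genes, and Efemp1 98.6% and 99.8%. The other tested members were not set against genes of their own level. These are descriptions of 4 libraries without a test.

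**Figure D3:**
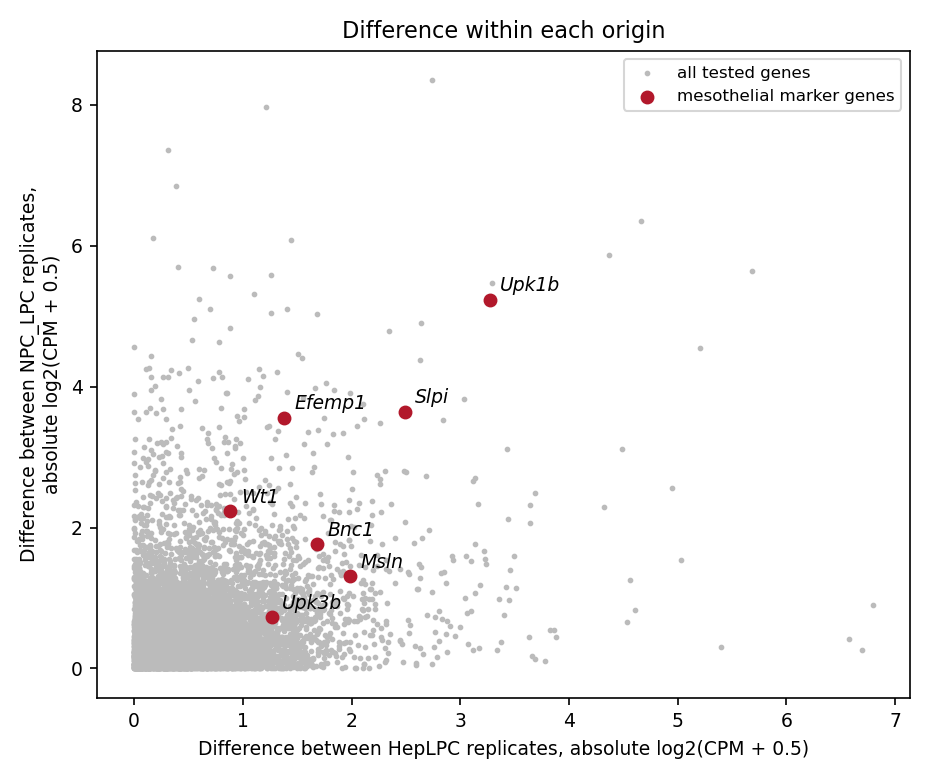
Absolute difference between the 2 HepLPC libraries (x axis) and the 2 NPC_LPC libraries (y axis) in log2(CPM + 0.5), with 1 grey point for each of 12332 tested genes and the 7 tested members in red. Upk1b lies at 3.27 and 5.23, and the medians over all genes are 0.39 and 0.33.

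Between the origins edgeR called 0 of the 7 tested members, where it called 0.43% of all tested genes at an adjusted p under 0.05, 0.227% as higher and 0.203% as lower in HepLPC. At an unadjusted p under 0.05 it had 1 of the 7, beside 21.9% of all tested genes. DESeq2 called 1, Bnc1, of the 8 members it gave an adjusted p, beside 11.6% of all genes (5.35% higher and 6.24% lower in HepLPC). Of the 7 tested members 5 had a fold change above 0 and 2 below, with a median of 0.29, against a median of -0.003 over all tested genes. In 3 of the 7 (Efemp1, Bnc1 and Upk3b) both HepLPC libraries lay above both NPC_LPC libraries, whereas groups did not overlap, with HepLPC higher, in 27.9% of all tested genes and in either direction in 56.4%. The other 3 members were left out by the edgeR filter and enter none of the edgeR and overlap counts, and of them DESeq2 gave an adjusted p to Muc16 only (0.207). The standard errors were 0.72 to 1.73 on the log2 scale, and group means 11.3-fold (Bnc1), 10.7-fold (Upk3b) and 6.45-fold (Wt1) apart did not pass.

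**Figure D4:**
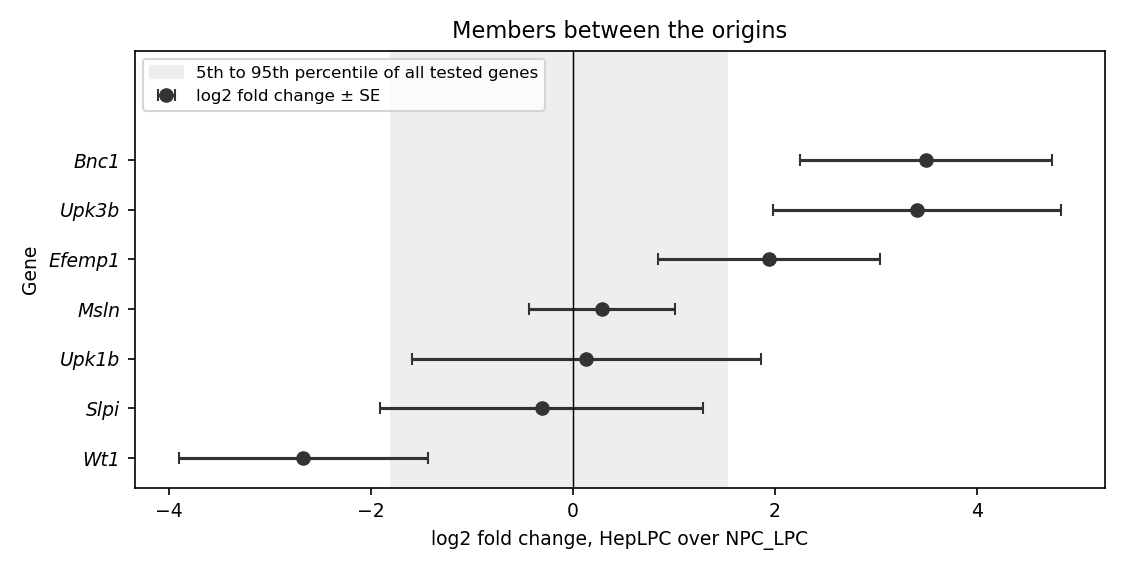
Log2 fold change of HepLPC over NPC_LPC with its standard error for the 7 tested members, from the edgeR fit over all genes. The grey band spans the 5th to 95th percentile of all tested genes, -1.80 to 1.53; Bnc1 and Upk3b lie above it and Wt1 below it, and none passed the test.

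The genes whose pattern over the 4 libraries was nearest to that of Msln, the member with the highest mean CPM, were Cmpk1, Zcchc24, Plgrkt, Nt5e and Zfp942. They were chosen from 9117 genes with a mean of at least 10 CPM by the root mean square difference of log2(CPM + 0.5) centred over the libraries, which was 0.13 for Cmpk1 and 0.23 for Zfp942. Cmpk1, a nucleoside monophosphate kinase, gave 36.7 and 120 CPM for HepLPC against 111 and 41.1 CPM for NPC_LPC. Nt5e, the surface nucleotidase CD73, was at 14.0 and 50.2 CPM and at 32.2 and 17.9 CPM. Of the other 9 members only Efemp1 and Upk1b had the mean CPM to be considered, and neither was among these 5 genes.

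A wider list of 22 genes reported in mesothelium had 15 tested members, of which edgeR called 0, with 7 at an unadjusted p under 0.05, beside 21.9% of all tested genes. Of these 15, 11 had a fold change above 0 and 4 below, with a median of 1.11. Its genes of highest mean CPM were the simple-epithelium keratins Krt8 and Krt18 and the membrane linker Ezr, which are shared with most epithelia. Krt8 was at 2291 and 4028 CPM in HepLPC and 697 and 1509 CPM in NPC_LPC, and Ezr at 1827 and 1388 against 1198 and 1024 CPM (edgeR adjusted p = 0.168 and 0.335). DESeq2 called 3 higher in HepLPC (Crip1, Krt19 and Krt8) and 4 lower (Aldh1a2, Cdh2, Has2 and Pdpn) of 17, beside 11.6% of all genes. The next genes of the list were named after their values were seen, some high and some low. Podxl, podocalyxin, gave 319 and 208 CPM for HepLPC against 73.6 and 170 CPM for NPC_LPC, and Thbd, thrombomodulin, gave 214 and 160 against 64.7 and 5.49 CPM. Cav1, Ildr2 and Cpe lay between 60.2 and 388 CPM in all 4 libraries. Pdpn, podoplanin, gave 0 and 0.0563 CPM for HepLPC against 3.73 and 0.297 CPM for NPC_LPC, and its highest library was that of Wt1, NPC_LPC replicate 1. Calb2, calretinin, had reads in HepLPC replicate 1 only, at 0.278 CPM, and Rspo1, Cd200 and Has1 had no count.

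Of 12 transcription factors of coelomic epithelium, edgeR tested 7 and called 0. At an unadjusted p under 0.05 it had 1 of the 7 (Gata6), beside 21.9% of all tested genes. Gata6 gave 80.3 and 110 CPM for HepLPC against 33.6 and 30.3 CPM for NPC_LPC (log2 fold change of 1.58 with SE 0.27, edgeR adjusted p = 0.074). DESeq2 called Gata6 higher, as 1 of the 8 genes of the list it gave an adjusted p, beside 11.6% of all genes. Gata4, its close relative, gave 14.9 and 28.6 CPM for HepLPC against 28.1 and 4.90 CPM for NPC_LPC, so that, as for Upk1b and Msln, HepLPC replicate 2 and NPC_LPC replicate 1 were the 2 highest. Nr2f2, a nuclear receptor of mesenchyme, was at 29.1 to 43.8 CPM in all 4 libraries. Tbx18, Lhx2 and Bnc2 were at or below 2.23 CPM.

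Of 24 paralogs of the members 12 were tested, and edgeR called 0, with 7 at an unadjusted p under 0.05 (21.9% over all genes). DESeq2 called 3 higher in HepLPC (Egr1, Egr3 and Fbln1) and 2 lower (Fbln2 and Gpm6b) of 12, where it called 11.6% of all genes. Mslnl, the neighbour in family of Msln, had at most 0.113 CPM, and Bnc2, the paralog of Bnc1, at most 0.297 CPM. Upk1a was at 0.346 to 1.10 CPM, Upk3bl at 0.113 CPM or less and Muc1 at 0.394 to 1.83 CPM. Gpm6b, the paralog of Gpm6a, was read in every library, with 40.8 and 34.0 CPM for HepLPC and 74.0 and 86.9 CPM for NPC_LPC. Lrrn1 was at 2.89 and 6.42 CPM in HepLPC and 5.70 and 0.594 CPM in NPC_LPC. Wfdc2, a secreted protein with the same core domain as Slpi, gave 149 and 101 CPM for HepLPC against 0 and 6.43 CPM for NPC_LPC (log2 fold change of 5.27 with SE 1.49, edgeR adjusted p = 0.138). Fbln2, a fibulin as Efemp1 is, gave 534 and 680 CPM for HepLPC against 2576 and 3667 CPM for NPC_LPC, the opposite order to Efemp1 (log2 fold change of -2.36 with SE 0.33, edgeR adjusted p = 0.057, called lower by DESeq2). Egr1, whose zinc fingers are related to those of Wt1, was at 205 and 128 CPM against 17.1 and 35.5 CPM (edgeR adjusted p = 0.074).

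Genes of the mesothelial to mesenchymal transition were tested for 11 of 13, and edgeR called 0, with 7 at an unadjusted p under 0.05 (21.9% over all genes), 8 fold changes below 0 and a median of -1.03. The fibronectin gene Fn1 gave 1608 and 1437 CPM for HepLPC against 7676 and 9431 CPM for NPC_LPC (log2 fold change of -2.49 with SE 0.31, edgeR adjusted p = 0.0504), and DESeq2 called it lower together with Cdh2, Tgfb1, Zeb1 and Zeb2, and called Cdh1 and Tgfbi higher, 7 calls of 13 beside 11.6% of all genes. Vim was at 1519 to 2161 CPM in the 4 libraries.

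Markers of other cell types were summed in each library. The 16 stellate cell and fibroblast markers summed to 15.8 and 10.6 CPM in the HepLPC libraries and to 6.97 and 18.3 CPM in the NPC_LPC libraries, with Lrat, Lum, Dpt, Thy1 and Hand2 at 0 counts in all 4, and Col1a1, Reln and Rgs5 had the highest mean CPM. The highest of these sums was in NPC_LPC replicate 2, which had the lowest sum of the members. The 10 endothelial markers summed to 7.68 to 17.9 CPM and were led by Egfl7, Kdr and Cdh5. The 10 leukocyte markers summed to 25.8 and 15.8 CPM in HepLPC and to 83.0 and 22.0 CPM in NPC_LPC, most of it Cd68, a lysosomal protein, followed by Csf1r and Cd74. The bile duct list was led by Spp1, Krt19 and Sox9 and the hepatocyte list by Apob, Trf and Ass1, and edgeR called 0 genes of these 5 lists. At an unadjusted p under 0.05 it had 1 of 5 tested stellate cell, 5 of 9 bile duct, 4 of 7 hepatocyte, 0 of 2 endothelial and 0 of 2 leukocyte genes, beside 21.9% of all genes. DESeq2, which called 11.6% of all genes, called Reln, Krt19, Apoa1, Hnf4a and Ttr higher and Spp1 lower in HepLPC. The part of any such cells in the levels of the members was not tested.

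**Figure D5:**
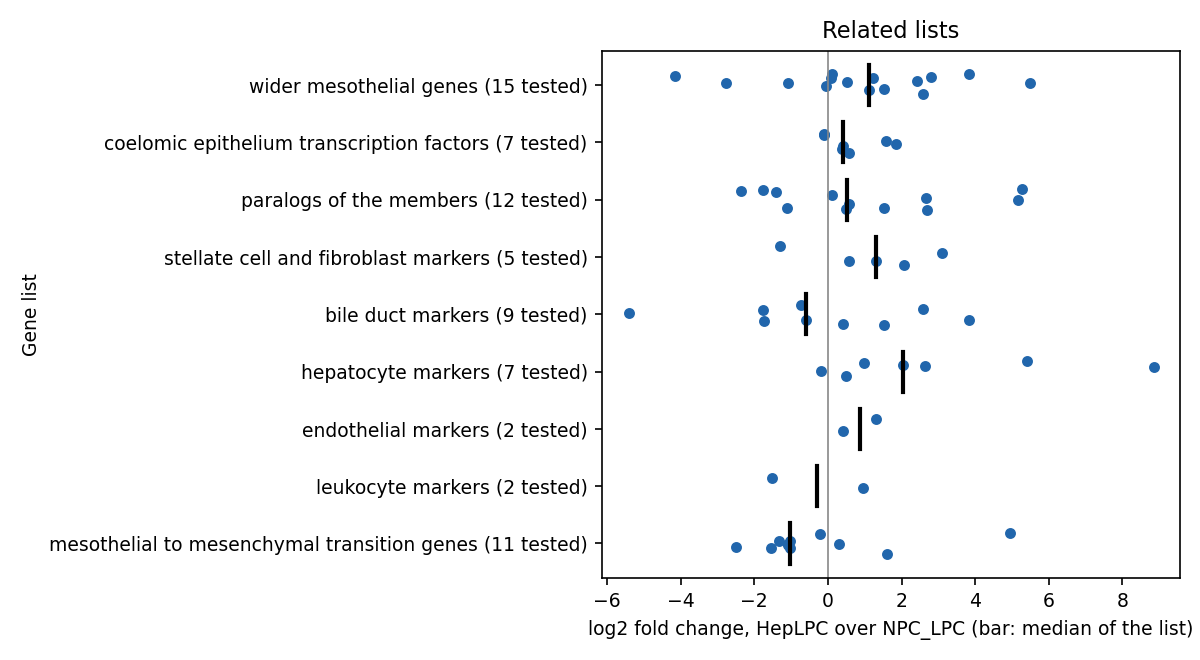
Log2 fold change of HepLPC over NPC_LPC for each tested gene (points) of 9 lists, with the median of each list as a black bar. The median of the wider mesothelial list is 1.11 and that of the transition list -1.03, and edgeR called no point in any list.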

How the data were processed

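RNA was sequenced from 4 libraries, 2 HepLPC and 2 NPC_LPC, made as paired-end, strand-keeping polyadenylated RNA libraries per the labels' protocols. The submitters' processing notes list DESeq, HTSeq, Cufflinks, HISAT2 and Trimmomatic and the build mm10; their versions, the annotation and the strand setting are not given there. The authors deposited read counts per gene, whole numbers that were used for all tests. FPKM, per the file headers, was deposited beside them and used to compare levels between genes and in alternatives. Of 21878 rows, 6043 had no count.

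Counts were tested with edgeR 4.0.16 (quasi-likelihood, TMM, filterByExpr, R 4.3.3) on all 12332 genes that passed, with group as the only term and Benjamini-Hochberg adjustment over them at 0.05, two-sided. Standard errors came from the F statistic. SDs are of 2 libraries. Replicates differed beyond sampling noise (chi-square of 95.3 and 116 per degree of freedom in HepLPC and NPC_LPC). Alternatives used DESeq2 1.42.0 and limma 3.58.1. Gene positions are from GENCODE on GRCm38 (mm10), promoters from RefSeq. Named are all members, the 3 most abundant genes and any called gene of each list, the most abundant paralog of each member, and the 5 genes nearest to the most abundant member; other genes were picked with their values in view. One listed gene that the rule names is not reported here. The members and lists were chosen with earlier results of these data known.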

Additional observations from a re-analysis of the deposited data

How the results depend on the processing

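The count of 53 genes called over the whole table moved with the test: 1521 with DESeq2, 593 with no filter on low counts, 111 with limma on log2(FPKM + 1) at a mean FPKM of at least 0.5, 5 with limma-voom, 0 with limma on log2(FPKM + 1) of all genes with any FPKM and 0 at an adjusted p of 0.01. Leaving out 1 library gave 0 to 377 genes. With the replicate number as a block 136 genes were called, and 0 members. The deviations of same-numbered libraries had a correlation of -0.0338. With 2 libraries per group this value cannot tell whether same-numbered libraries share a mouse, culture or day, which the labels do not say. The count of 0 members became 1 with DESeq2 (Bnc1), and ranged from 0 to 1 when 1 library was left out (Efemp1 without NPC_LPC replicate 1). Slpi turned to 0.70 with limma-voom, 0.45 with the replicate block and 0.076 with limma on log2(FPKM + 0.1). When 1 library was left out the log2 fold change ranged from -1.02 to 1.11 for Msln, -2.46 to 5.54 for Upk1b and -2.62 to 4.07 for Slpi. The cause was not tested. Bnc1, Efemp1 and Upk3b stayed above 0 and Wt1 below 0 in every alternative that gave them a value. For Bnc1, Efemp1 and Upk3b the groups did not overlap, so leaving out a library could not turn the sign. Depth limits Lrrn4, Gpm6a, Muc16 and Upk3b most. With 1 library left in a group, that library is assumed to vary like the other group.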
